A study of Mus musculus with 12 samples.

Results

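Glycolysis is the chain of cytosolic reactions that turns glucose into pyruvate and yields ATP without oxygen. The 10 genes described here were taken by symbol and encode the glucose transporter GLUT1 (Slc2a1), the enzymes of 8 steps from glucose to pyruvate (Hk1, Aldoa, Tpi1, Gapdh, Pgk1, Pgam1, Eno1 and Pkm), and a subunit of lactate dehydrogenase, which turns pyruvate into lactate (Ldha). They are 10 of the 27588 genes that could be matched between the annotations of the libraries, and all 10 were among the 13945 genes that passed the filter on low counts.

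Bulk RNA sequencing libraries labelled as monocytes of the meninges, the membranes around the brain, came from male C57BL/6J mice in 4 groups of 3. The control group is labelled as unstressed. The vehicle, psilocybin and MDMA groups all went through 18 days of chronic restraint and were then given vehicle, psilocybin or MDMA, with tissue taken 24 hours later. Psilocybin is the precursor of the serotonin receptor agonist psilocin, MDMA is an amphetamine derivative that releases monoamines, and neither dose is given in the sources used here. Whether the 3 libraries of a group are separate animals is not stated in the labels; p-values therefore reflect only how these libraries vary, which may be technical.

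Most of these enzymes are made in every cell, and their transcripts are often raised together by the hypoxia-inducible factors, which bind DNA at a short core motif. Activated monocytes and macrophages are known for high glycolysis and lactate output. In the tissue around the brain, GLUT1 is also abundant in the endothelium of the blood-brain barrier and in the choroid plexus, the epithelium that secretes cerebrospinal fluid. In bulk samples, a lower level of a transcript can come from fewer cells of a type or from less RNA per cell, and these cannot be told apart.

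The promoter windows of the gene that passed the test and of 3 others at different points of the pathway are shown. Capitals mark ACGTG, a form of the hypoxia-inducible factor core motif, on either strand, and other forms of the core were not searched. Each window runs from 250 bases before to 50 after an annotated start of transcription, from RefSeq on GRCm38.p6. The Ldha window lies at chr7:46845554-46845853, the Pgk1 window at chrX:106186850-106187149, the Slc2a1 window at chr4:119108495-119108794 and the Eno1 window at chr4:150236947-150237246, all on the plus strand.
Ldha: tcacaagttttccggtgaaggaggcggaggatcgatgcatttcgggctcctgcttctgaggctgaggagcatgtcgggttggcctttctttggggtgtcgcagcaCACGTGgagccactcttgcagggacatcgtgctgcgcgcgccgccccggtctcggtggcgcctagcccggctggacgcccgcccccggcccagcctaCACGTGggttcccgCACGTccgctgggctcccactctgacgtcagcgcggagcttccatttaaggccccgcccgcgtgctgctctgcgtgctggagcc
Pgk1: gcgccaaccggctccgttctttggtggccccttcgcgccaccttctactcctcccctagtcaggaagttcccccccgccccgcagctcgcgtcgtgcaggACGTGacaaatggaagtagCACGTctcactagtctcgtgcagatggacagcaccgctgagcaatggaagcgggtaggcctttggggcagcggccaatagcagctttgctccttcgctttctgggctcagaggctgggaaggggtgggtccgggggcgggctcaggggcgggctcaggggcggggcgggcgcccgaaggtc
Slc2a1: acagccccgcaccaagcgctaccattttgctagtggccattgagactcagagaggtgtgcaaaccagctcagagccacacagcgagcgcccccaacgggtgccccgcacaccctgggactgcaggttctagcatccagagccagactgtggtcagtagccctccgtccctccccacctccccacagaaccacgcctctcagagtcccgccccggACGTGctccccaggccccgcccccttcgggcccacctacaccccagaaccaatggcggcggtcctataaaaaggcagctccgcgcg
Eno1: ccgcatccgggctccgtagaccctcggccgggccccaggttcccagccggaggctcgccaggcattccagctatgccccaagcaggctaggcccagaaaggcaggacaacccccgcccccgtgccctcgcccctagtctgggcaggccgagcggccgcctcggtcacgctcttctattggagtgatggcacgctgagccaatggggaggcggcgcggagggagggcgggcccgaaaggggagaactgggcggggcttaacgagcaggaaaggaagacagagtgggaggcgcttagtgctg
The Ldha window shown held 5 matches, 4 of which are overlapping pairs that together spell CACGTG 2 times, at 145 and 48 bases before the start, and the other match began 34 bases before it. The other Ldha window in RefSeq, at chr7:46846832-46847131, held none. Pgk1 held 2 matches, Slc2a1 held 1, and the Eno1 window shown held no ACGTG on either strand, nor did the other Eno1 windows. All 10 genes had windows in the RefSeq table, 17 in all. ACGTG was in 9 of the 17 windows, from 8 genes, against 19.6% of the 32851 windows of all genes. The longer form CACGTG was found in 1 of the 17 windows, the Ldha window shown, and in 7.15% of all windows. The GC box GGGCGG was in 10 of the 17 windows, from 8 genes (35.7% of all windows), and CCAAT in 8 windows from 5 genes (37.4%). TATAAA was only in the Slc2a1 window (13.6%), and each motif was searched on both strands. Genes with several windows have more chances to hold a motif, and overlapping windows, as for Aldoa, can hold the same site. A match describes letters, not a bound site.

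The libraries held between 807725 counts (vehicle 2) and 5136953 counts (MDMA 3). The vehicle libraries showed counts for 10345, 13464 and 9522 genes in replicates 1, 2 and 3, and the other 9 libraries for 14321 to 17926. Monocyte markers were low beside those of choroid plexus epithelium. The 8 markers of classical monocytes summed to between 123 and 980 CPM (counts of a gene per 1000000 counts of the library) per library. The 6 markers of non-classical monocytes summed to between 442 and 1348 CPM. Cx3cr1, which is among these 6, had no count in unstressed 1, vehicle 1 and vehicle 3. The 6 together had 1348, 840 and 522 CPM in these libraries. By contrast, 11 markers of choroid plexus epithelium took 1.31% (vehicle 3) to 12.7% (vehicle 1) of all counts. The unstressed files counted RefSeq genes and the others Ensembl genes. Of the 10 genes, 9 had more exon sequence of their own, not shared with another gene, in the Ensembl annotation, from 1.08 times for Pgam1 to 2.72 times for Eno1, and Aldoa had 0.911 times as much.

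Ldha was the only one of the 10 that passed the test in any comparison. It was higher in vehicle than in unstressed libraries by 1.58 ± 0.40 (log2 ± SE, 2.98-fold), with an adjusted p of 0.049 (edgeR quasi-likelihood test, Benjamini-Hochberg over all tested genes). In that comparison 1 of the 10 passed, against 3.43% of all tested genes in either direction. No gene of the 10 passed in psilocybin against unstressed, where 0.0861% of all genes did (0.0287% higher and 0.0574% lower), or in MDMA against unstressed, where 0.122% did (0.0359% higher and 0.0861% lower). None passed in psilocybin or MDMA against vehicle or in psilocybin against MDMA. In the test of any difference among the 4 groups none passed either, and Ldha had the smallest adjusted p of the 10, 0.189, where 0.581% of all tested genes passed.

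**Figure D1:**
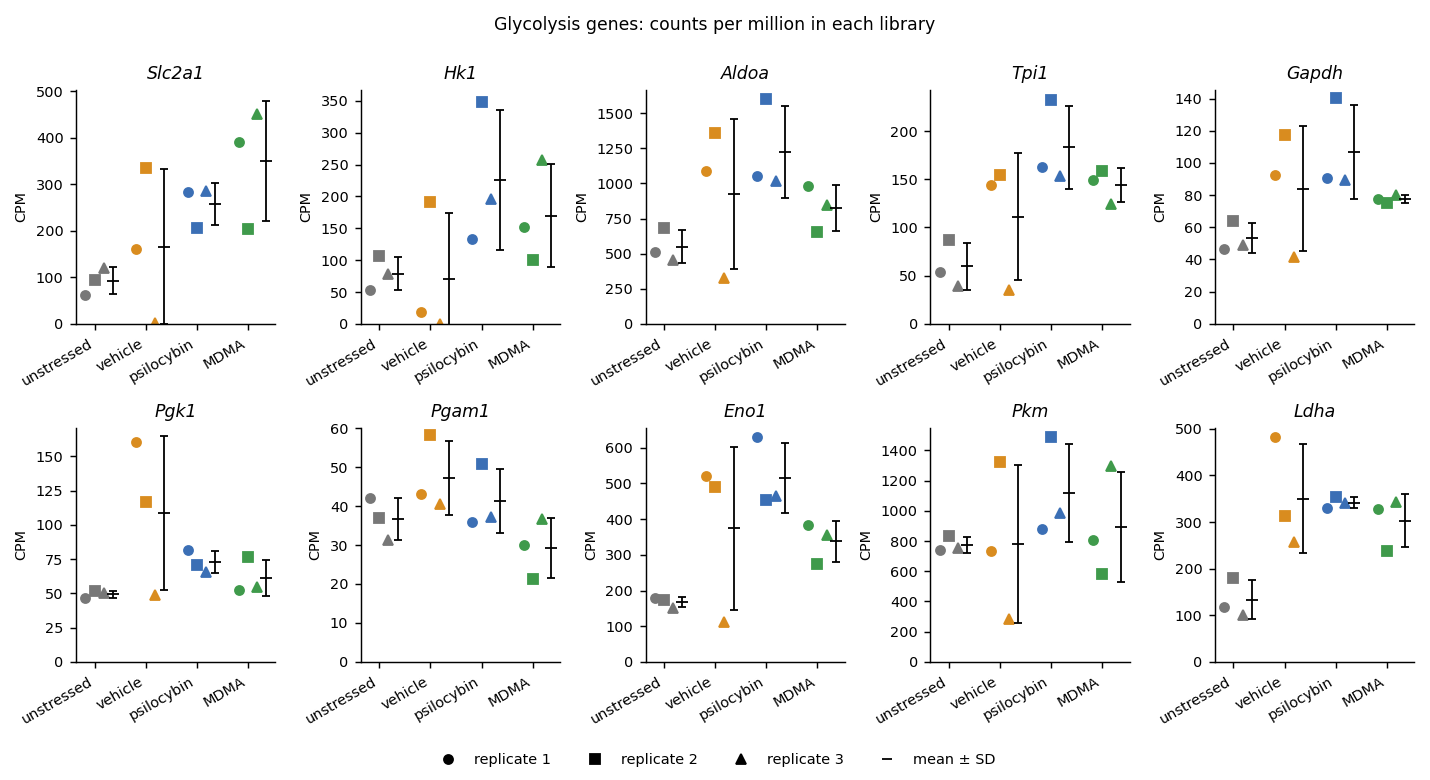
CPM of the 10 genes (vertical axes, from 0) in each library of the 4 groups; symbols mark the replicate number, and the bar beside each group is the mean ± SD (n = 3), cut at 0. The vehicle libraries run from 0.512 to 191 CPM for Hk1, and all 3 Ldha values of the vehicle group lie above those of unstressed libraries.

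Slc2a1 (chr4:119108711-119137983, GENCODE vM21 on GRCm38) encodes the transporter that lets glucose enter many cells down its gradient. Its CPM was 62.7, 95.3 and 119.9 in unstressed replicates 1, 2 and 3, and 161, 336 and 2.05 in vehicle. The psilocybin libraries had 283, 206 and 286 CPM, and the MDMA libraries 391, 204 and 452. Both drug groups lay above all unstressed libraries, while vehicle ran from the lowest value of all 12, which rested on 4 counts, to above every psilocybin library. In MDMA against unstressed the difference was 1.83 ± 0.90 (log2 ± SE, edgeR adjusted p = 0.999), and in psilocybin against unstressed 1.49 ± 0.89 (adjusted p = 0.939).

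Hk1 (chr10:62268855-62379908) encodes hexokinase 1, which phosphorylates glucose and traps it in the cell. It had 52.9, 106 and 77.9 CPM in unstressed libraries, 18.2, 191 and 0.512 in vehicle, 134, 348 and 195 in psilocybin, and 153, 99.7 and 258 in MDMA. The vehicle value of replicate 3 was a single count, and the vehicle group overlapped every other group. The difference of psilocybin from vehicle was 1.82 ± 1.04 (log2 ± SE, edgeR adjusted p = 0.438) and that of MDMA from vehicle 1.33 ± 1.03 (adjusted p = 0.58). Without vehicle replicate 2 these became 4.30 (adjusted p = 0.0119) and 3.87 (adjusted p = 0.0163), in fits where 24.5% and 25% of all genes passed, so 1 library decides both. In vehicle against unstressed the difference was -0.30 ± 1.02 (edgeR adjusted p = 0.912), and without that same library -2.81 (adjusted p = 0.0474), where 25.4% of all genes passed.

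Aldoa (chr7:126795234-126800751) encodes the aldolase that splits the phosphorylated sugar into a pair of triose phosphates. Its levels were 510.3, 683 and 456 CPM in unstressed libraries and 1087, 1356 and 329 in vehicle. Psilocybin libraries held 1054, 1601 and 1020.1 CPM, and MDMA libraries 982, 654 and 846. All psilocybin libraries were above all MDMA libraries, and vehicle 3 was the lowest of the 12. The psilocybin to MDMA difference was 0.63 ± 0.41 (log2 ± SE, edgeR adjusted p = 1), with 2 SE on either side running from -0.18 to 1.45. Against unstressed, vehicle differed by 0.82 ± 0.41 (edgeR adjusted p = 0.303), which passed at 1.17 (adjusted p = 0.0434) without vehicle replicate 3, where 6.8% of all genes passed.

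Tpi1 (chr6:124810586-124814296) encodes the isomerase that interconverts those triose phosphates. It had 53.6, 86.8 and 38.9 CPM in unstressed, 143, 155 and 35.3 in vehicle, 163, 233 and 153 in psilocybin, and 149, 158 and 124 in MDMA libraries. Every drug-treated library exceeded every unstressed one, and vehicle 3 was again lowest. Psilocybin differed from unstressed by 1.64 ± 0.54 (log2 ± SE, edgeR adjusted p = 0.428) and MDMA from unstressed by 1.25 ± 0.54 (adjusted p = 0.885).

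Gapdh (chr6:125161715-125166467) encodes the dehydrogenase that makes NADH from the triose phosphate and is often used as a reference gene. CPM values were 46.8, 63.9 and 48.8 in unstressed and 92.7, 118 and 41.4 in vehicle libraries. They were 90.6, 140.3 and 89.5 in psilocybin and 77.7, 74.8 and 80.0 in MDMA libraries. The psilocybin libraries lay above all MDMA libraries, which spanned only 74.8 to 80.0. The difference between the drug groups was 0.51 ± 0.51 (log2 ± SE, edgeR adjusted p = 1).

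Pgk1 (chrX:106187100-106203699) encodes the kinase of the first ATP-making step. Unstressed libraries had 46.5, 51.4 and 50.4 CPM, vehicle 160.3, 116 and 48.6, psilocybin 81.7, 70.7 and 65.9, and MDMA 52.7, 76.6 and 54.9. Vehicle replicates 1 and 2 were the highest of all 12, and vehicle 3 lay among the unstressed values. The vehicle to unstressed difference was 1.25 ± 0.56 (log2 ± SE, edgeR adjusted p = 0.243). It passed at 1.54 (adjusted p = 0.0455) without vehicle replicate 3, where 6.8% of all genes passed, and at 1.43 (adjusted p = 0.0225) with DESeq2, where 12.5% did.

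Pgam1 (chr19:41911923-41918660) encodes the mutase that moves the phosphate of phosphoglycerate. Its CPM was 42.0, 36.9 and 31.3 in unstressed, 43.0, 58.2 and 40.4 in vehicle, 35.8, 50.7 and 37.3 in psilocybin, and 29.996, 21.3 and 36.6 in MDMA. It was the only gene of the 10 for which all MDMA libraries lay below all vehicle libraries, as 1.87% of tested genes did. The difference was -0.91 ± 0.62 (log2 ± SE, edgeR adjusted p = 0.517).

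Eno1 (chr4:150236721-150248879) encodes enolase 1, which forms phosphoenolpyruvate. It had 178, 174 and 151 CPM in unstressed libraries and 521, 490.3 and 112 in vehicle. Psilocybin libraries had 629, 454 and 464 CPM, and MDMA libraries 385, 273 and 355. The psilocybin values were all above the MDMA values, and both above unstressed. Eno1 differed between psilocybin and unstressed by 1.64 ± 0.46 (log2 ± SE, edgeR adjusted p = 0.265) and between vehicle and unstressed by 1.23 ± 0.46 (adjusted p = 0.156). The latter passed without vehicle replicate 3 (1.63, edgeR adjusted p = 0.0147), where 6.8% of all genes passed. It also passed with DESeq2 (1.39, adjusted p = 0.0403), where 12.5% did.

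Pkm (chr9:59656368-59679375) encodes the pyruvate kinase of most tissues, which makes ATP in the last step. It was the most abundant of the 10 in CPM in unstressed libraries, at 742, 836 and 751, and had 735, 1323 and 282 in vehicle, 878, 1487 and 986 in psilocybin, and 808, 579 and 1296 in MDMA. The vehicle and MDMA groups overlapped unstressed on both sides. Its difference between vehicle and unstressed was 0.06 ± 0.43 (log2 ± SE, edgeR adjusted p = 0.965). The counts do not separate the splice forms of Pkm.

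Ldha (chr7:46841475-46855627) encodes the subunit of lactate dehydrogenase known for turning pyruvate into lactate. It had 118, 181 and 101 CPM in unstressed libraries (134 ± 41.8, SD, n = 3), 482, 313 and 256 in vehicle (351 ± 117), 329.8, 354 and 341 in psilocybin (342 ± 12.1), and 327, 238 and 343 in MDMA (303 ± 56.4). Every library of the stressed groups was above every unstressed library, and the stressed groups overlapped each other. Ldha was 1 of the 31 genes higher in vehicle than in unstressed (0.222% of the genes tested), and the 447 genes lower in vehicle made up 3.21%. Differences of psilocybin and MDMA from vehicle were -0.20 ± 0.39 and -0.44 ± 0.39 (log2 ± SE, edgeR adjusted p = 0.87 and 0.645). Against unstressed, psilocybin differed by 1.38 ± 0.40 (edgeR adjusted p = 0.30) and passed with DESeq2 (1.36, adjusted p = 0.0488), where 1.76% of all genes did.

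Annotation bears directly on this call. Ldha has 3310 bases of exon of its own in the Ensembl annotation, used for the stressed libraries, and 1809 in RefSeq, used for the unstressed ones. Per kb of its own exons, the levels were 65.4, 99.97 and 56.1 CPM in unstressed and 146, 94.6 and 77.5 in vehicle libraries, so that the groups overlapped. None of the 10 genes lay above unstressed without overlap per kb, as 1.65% of all genes did. With each library's exon length as an offset in the fit, the difference was 1.09 (edgeR adjusted p = 0.155). The call was also lost without vehicle replicate 1 (1.29, adjusted p = 0.0864), without any 1 of the unstressed libraries (adjusted p of 0.0819 to 0.155), without TMM scaling (1.42, 0.0658), with no filter (1.69, 0.0799) in a fit of the 6 libraries alone (1.58, 0.452) and with the replicate number as a block (1.56, 0.105). The direction was the same in all 17 alternatives, with differences of 1.09 to 1.88, and 6 of them kept the call.

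**Figure D2:**
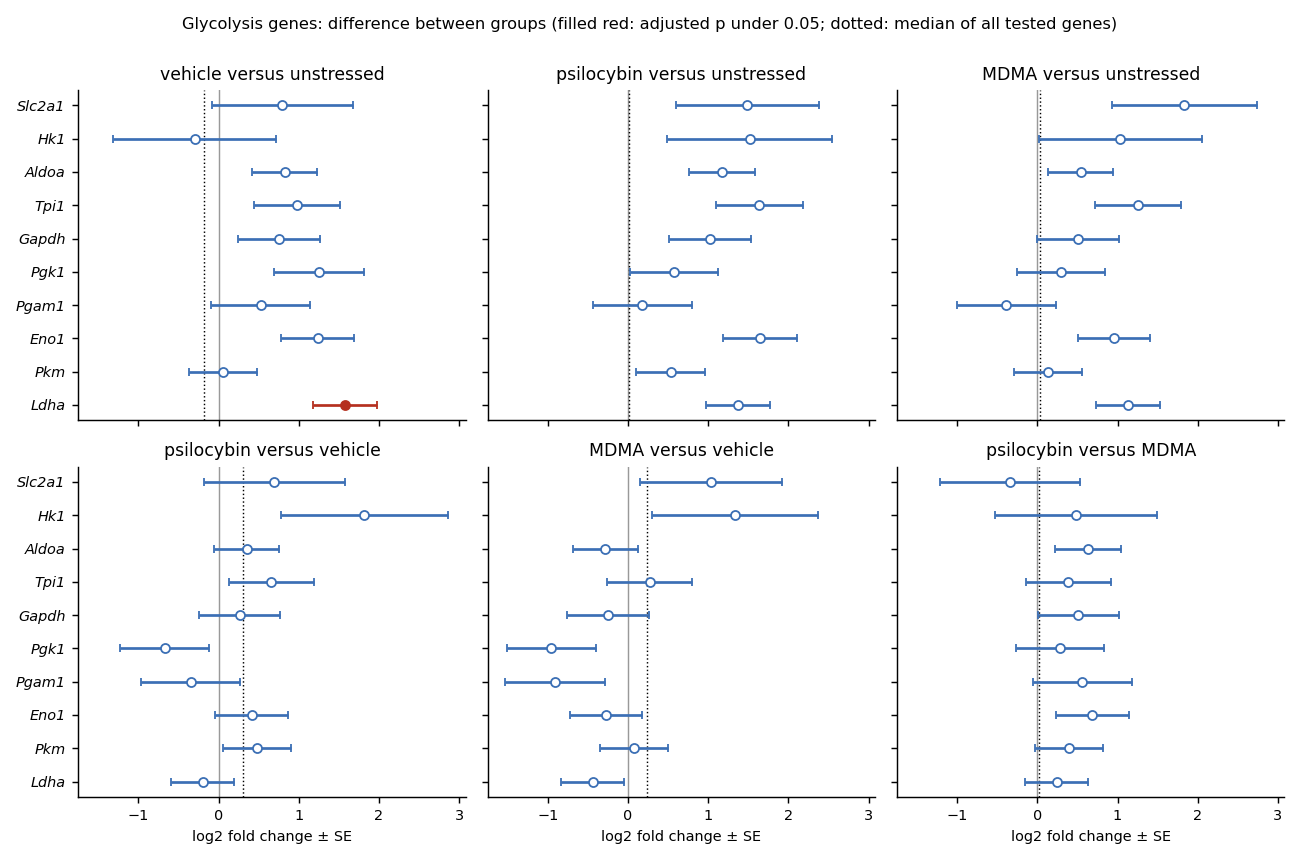
Log2 fold change ± SE (horizontal axes) of the 10 genes in 6 comparisons of groups, from the edgeR fit of all 12 libraries; filled red marks an adjusted p under 0.05 and the dotted line is the median of all tested genes. Only Ldha in vehicle against unstressed is filled, at 1.58.

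The lean of the 10 genes differed by comparison. In vehicle against unstressed 9 of 10 estimates were above 0, with a median of 0.81 (log2) against -0.18 over all tested genes (0.00 with DESeq2 size factors, where the median of the 10 was 0.97), and only Ldha had groups that did not overlap, as 2.77% of all genes did in that direction. In psilocybin against unstressed all 10 estimates were above 0 with a median of 1.27, against 0.02 over all genes. There, 9 of the 10, all but Pgam1, had CPM above unstressed without overlap, against 18.3% of all genes. In MDMA against unstressed 9 estimates were above 0, the median was 0.75 (0.04 over all genes), and 6 genes did not overlap (11.7% of all genes), namely Slc2a1, Tpi1, Gapdh, Pgk1, Eno1 and Ldha. With the exon-length offset the medians in vehicle, psilocybin and MDMA against unstressed fell to 0.69, 0.71 and 0.47. Estimates above 0 then numbered 8, 10 and 6, and the medians over all genes were -0.19, 0.02 and 0.07. These comparisons share the unstressed libraries, and those with vehicle share the vehicle libraries, so their values are not independent of each other.

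The stressed groups share 1 annotation, so exon length does not enter the comparisons between them. The median of the 10 was 0.38 in psilocybin against vehicle and -0.26 in MDMA against vehicle, against 0.31 and 0.24 over all tested genes, with 7 and 4 estimates above 0 (7 and 3 with DESeq2 size factors, where Pkm turned to -0.05 in MDMA against vehicle). None of the 10 passed, where 2 genes (0.0143%) and 94 genes (0.674%) of all tested did, and none was higher than vehicle without overlap, where 20.8% and 16.8% of all genes were. None was lower than vehicle without overlap in psilocybin, where 2.62% of all genes were. Between psilocybin and MDMA, 9 of 10 estimates were above 0 with a median of 0.44, against 0.02 over all genes, and Aldoa, Gapdh and Eno1 were higher without overlap (7.76% of all genes). No gene at all passed in that comparison with edgeR, with DESeq2 or with limma voom, and 81, 166 and 179 genes had an unadjusted p under 0.05. The differences of the 10 genes between the drug groups, with 2 SE on either side, reached at most 2.50 (Hk1), so changes of several fold in either direction could not be told from none for Hk1 and Slc2a1.

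When each drug group was fitted with the unstressed libraries alone, which leaves the vehicle libraries out of the estimate of the spread, more genes passed. Slc2a1, Hk1, Aldoa, Tpi1, Eno1 and Ldha were higher in psilocybin than in unstressed, 6 of the 10 where 10.3% of all genes passed, with edgeR adjusted p of 0.0262, 0.0448, 0.0373, 0.0237, 0.0116 and 0.0206. With the exon-length offset added, an alternative chosen after seeing the data, Aldoa (1.62, adjusted p = 0.0133) and Slc2a1 (1.46, adjusted p = 0.0227) still passed, where 12.9% of all genes did. In MDMA against unstressed Slc2a1 alone of the 10 passed in this way, at 1.84 (edgeR adjusted p = 0.0426) without and 1.86 (adjusted p = 0.0487) with the offset, where 1.76% and 1.5% of all genes passed. In vehicle against unstressed none of the 10 passed in the fit of 6 libraries, where only 2 of all 12193 genes tested did. With the offset no gene at all passed there.

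**Figure D3:**
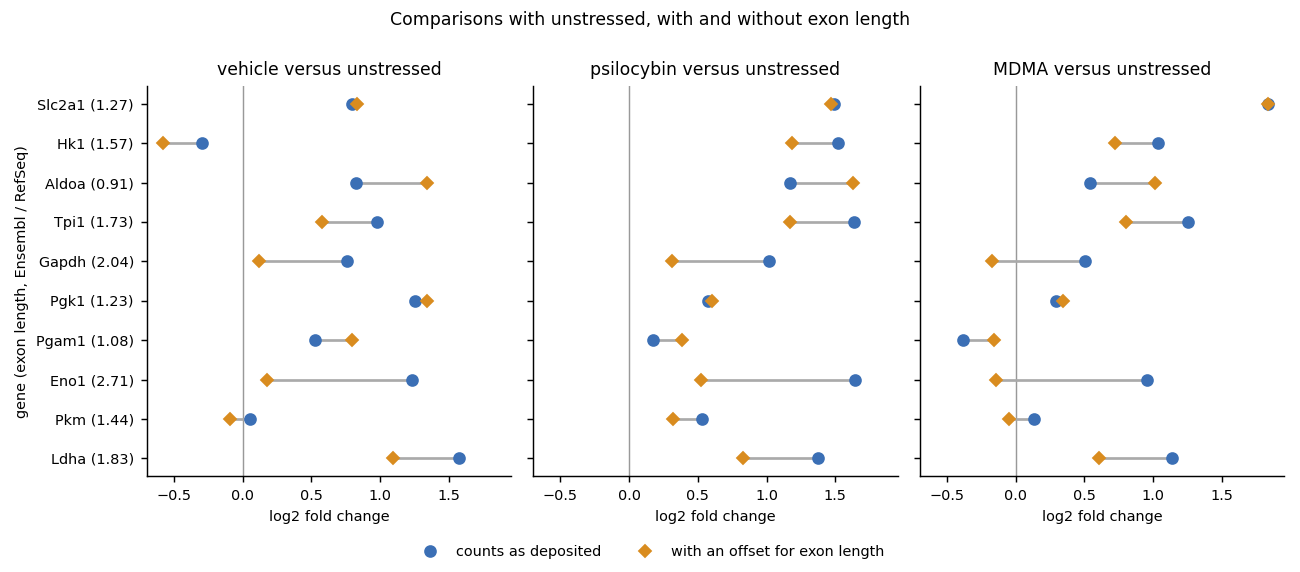
Log2 fold change of the 10 genes against unstressed (horizontal axes) from the counts as deposited (circles) and with an offset for exon length (diamonds); numbers in brackets are each gene's own exon length in Ensembl over that in RefSeq. Eno1 moves most, from 1.64 to 0.52 in psilocybin, and Slc2a1 stays at 1.83 in MDMA.

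Exon length moved the genes unequally. Eno1, whose own exons come to 5379 bases in Ensembl and 1981 in RefSeq, went from 1.64 to 0.52 (log2) in psilocybin against unstressed and from 0.96 to -0.14 in MDMA against unstressed. Gapdh (4065 and 1998 bases) went from 1.02 to 0.31 and from 0.51 to -0.18, and Aldoa (2886 and 3168 bases) from 1.17 to 1.63 and from 0.54 to 1.02. Slc2a1 (3401 and 2682 bases) hardly moved, from 1.49 to 1.47 and from 1.83 to 1.83. Per kb, a view of the overlaps chosen after seeing the data, only Slc2a1, Aldoa, Tpi1 and Pgk1 lay above unstressed without overlap in psilocybin (11.4% of all genes) and none below (29.2%), and Slc2a1 and Aldoa in MDMA (7.24%). Gapdh and Eno1 lay below unstressed without overlap in MDMA per kb, as 20.6% of all genes did. The offset takes the whole annotated exon length as transcribed, which was not tested, so the true difference of a gene may lie between both values or outside them.

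Levels can be ordered between genes only per length. Pkm led in unstressed libraries with 265 ± 17.7 CPM per kb (SD, n = 3), above Aldoa (174 ± 37.4) without overlap, and Eno1 (84.8 ± 7.28) and Ldha (73.8 ± 23.1) followed and overlapped. In psilocybin Aldoa led (424 ± 113) above Pkm (264 ± 76.7) without overlap, and in MDMA Aldoa (287 ± 57.1) and Pkm (211 ± 86.4) overlapped. The lengths are those of each library's own annotation. Aldoa has 3168 bases in RefSeq (unstressed) and 2886 in Ensembl (stressed), and Pkm has 2933 and 4234. The change of order from unstressed to the drug groups thus rests on different lengths, and the order under a shared annotation was not tested. Hk1 was the lowest of the 10 in unstressed (14.8 ± 4.97) and vehicle (8.33 ± 12.5), and Pgam1 in psilocybin (20.8 ± 4.15) and MDMA (14.8 ± 3.86), each overlapping its next neighbour. Slc2a1 followed Aldoa and Pkm in MDMA at 103 ± 38.0 CPM per kb, overlapping Ldha (91.5 ± 17.0), and in unstressed, at 34.5 ± 10.7, overlapped Tpi1 and Pgk1. In the vehicle group every neighbour overlapped the next.

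Ldhb, the other main subunit of lactate dehydrogenase, stood above Ldha per kb in all 12 libraries. Its CPM was 171, 189.8 and 226 in unstressed, 1349.7, 529 and 232 in vehicle, 876, 374 and 507 in psilocybin, and 424, 223 and 259 in MDMA. Vehicle 1 and psilocybin 1 were highest, and vehicle 3 lay near the unstressed libraries. The vehicle to unstressed difference of Ldhb was 1.97 ± 0.57 (log2 ± SE, edgeR adjusted p = 0.0693). Ldha made up 32.8% ± 8.14 of both subunits per kb in unstressed, 23.6% ± 10.1 in vehicle, 23.4% ± 7.96 in psilocybin and 33.0% ± 5.93 in MDMA libraries (SD, n = 3), and single libraries ran from 14.5% (vehicle 1) to 40.7% (unstressed 2). Unstressed shares use RefSeq lengths (1809 bases for Ldha, 1304 for Ldhb) and the others Ensembl lengths (3310 and 1570). A share in unstressed is thus not directly comparable with one in a stressed group, and the part of the lengths in their difference was not tested. None of the 4 differences tested in this share reached the smallest p that 3 against 3 allows, 0.1 (two-sided exact permutation tests, p of 0.2 to 1).

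**Figure D4:**
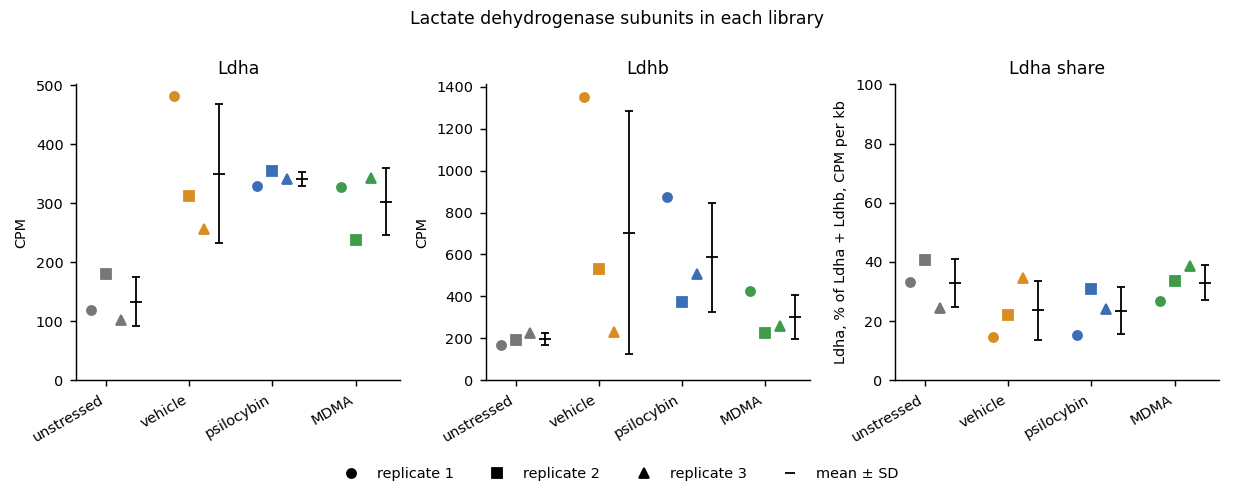
CPM of Ldha and Ldhb, and the share of Ldha in both per kb of own exon (vertical axes, from 0), in each library; symbols mark replicates and bars the mean ± SD (n = 3), cut at 0. Ldha lies higher in all stressed libraries than in unstressed ones, while its share runs from 14.5% in vehicle 1 to 40.7% in unstressed 2. Exon lengths differ between the annotations of unstressed and stressed libraries.

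Among glucose transporters, Slc2a12 and Slc2a3 were measured beside Slc2a1. Slc2a1 made up 49.95% ± 21.6 of the 3 per kb in unstressed, 49.9% ± 22.4 in vehicle, 53.6% ± 3.91 in psilocybin and 71.2% ± 3.10 in MDMA libraries (SD, n = 3). Here too, unstressed shares use RefSeq lengths and the others Ensembl lengths. All MDMA libraries, at 67.7% to 73.5%, were above all psilocybin and vehicle libraries, but 1 unstressed library reached 72.3%. The share in vehicle 3 rests on 7 counts, 4 of them Slc2a1. Both differences had an exact permutation p of 0.1, the smallest that 3 against 3 allows, and 0.4 after Benjamini-Hochberg adjustment over 8 tests of shares. Hk1 supplied 77.9% to 100% of hexokinases 1 to 3 per kb in every library but vehicle 3, where 1 of 6 hexokinase counts was Hk1. Aldoa, Eno1 and Pkm made up most of their families, with at least 93.4%, 82.5% and 99.4% of the family per kb in each library.

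Other genes of the pathway were taken as 7 lists. Over all tested genes, 3.43% passed in vehicle against unstressed and at most 0.674% in any other comparison of groups. None of 13 tested genes from a list of 21 other glycolysis genes passed in any comparison, and their median in vehicle against unstressed was 0.55 (log2) against -0.18 over all genes. The same holds for 4 of 5 listed regulators of phosphofructokinase that were tested, with medians of -2.51 in vehicle against unstressed and 2.29 and 1.98 in psilocybin and MDMA against vehicle. None of 16 genes of pyruvate use, 7 of the pentose phosphate pathway and 2 tested of gluconeogenesis passed; their medians in vehicle against unstressed were 0.03, 0.14 and 0.87. Of 22 hypoxia response genes tested, 1 passed, lower in vehicle than in unstressed, where 3.21% of all genes did, with a list median of 0.17, and the medians in psilocybin and MDMA against vehicle were 0.21 and 0.06.

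Of 11 tested transporters of glucose and lactate, 2 passed as lower in vehicle than in unstressed, where 3.21% of all genes did, and the same 2 as higher in MDMA than in vehicle, where 0.674% did. Slc2a10, a facilitative glucose transporter, had 22, 48 and 56 counts in unstressed, 34, 30 and 52 in psilocybin and 44, 126 and 129 in MDMA libraries, and no count in any vehicle library. It was at least 20.3-fold lower in vehicle than in unstressed (edgeR adjusted p = 0.0334) and at least 45.4-fold higher in MDMA than in vehicle (adjusted p = 0.0465), from a floor of 3 counts over the vehicle group. Psilocybin against vehicle did not pass for this gene (adjusted p = 0.0687), and psilocybin against MDMA had an adjusted p of 1. Slc16a7, the monocarboxylate transporter MCT2 that carries lactate and pyruvate, had 16, 54 and 168 counts in unstressed, 44, 5 and 55 in psilocybin and 58, 423 and 102 in MDMA libraries, and none in vehicle. It was at least 38.3-fold lower in vehicle than in unstressed (edgeR adjusted p = 0.045) and at least 88.5-fold higher in MDMA than in vehicle (adjusted p = 0.0497), and psilocybin against vehicle had an adjusted p of 0.108. Leaving out 1 library with counts moved these bounds to between 18.2 (without unstressed 3) and 48.1, and to between 31.0 (without MDMA 2) and 137 (without MDMA 3). Each call of both genes was lost when any 1 unstressed or MDMA library of its comparison was left out (adjusted p of 0.0771 to 0.111). Ankrd37, a target of the hypoxia-inducible factors, had 14, 16 and 21 counts in unstressed and none in vehicle libraries, at least 8.21-fold lower (adjusted p = 0.0465). The low number of genes with counts in vehicle libraries moved with these zeros, and its part in them was not tested. Each of these calls was lost in at least 7 of the 16 to 18 alternatives, and all 3 genes failed in the vehicle to unstressed fit of 6 libraries (adjusted p of 0.269 to 0.285).

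**Figure D5:**
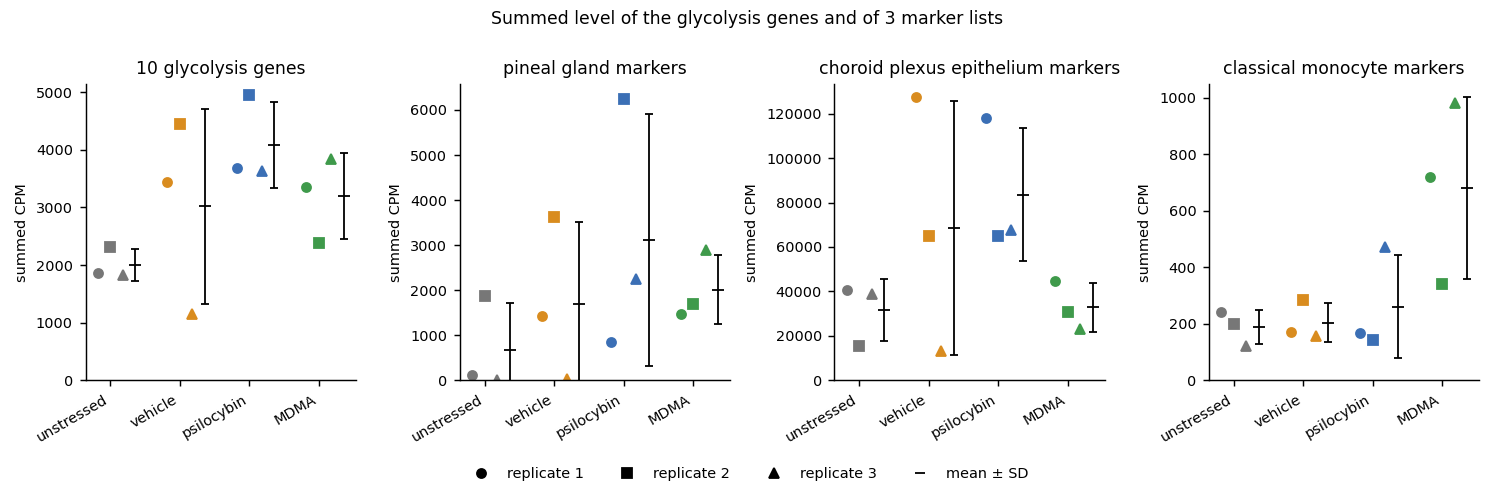
Summed CPM (vertical axes, from 0) of the 10 genes and of marker lists of the pineal gland (7 genes), choroid plexus epithelium (11) and classical monocytes (8) in each library; symbols mark replicates and bars the mean ± SD (n = 3), cut at 0. Vehicle 3 has the lowest sum of the 10 genes (1148 CPM) and psilocybin 2 the highest (4944), and the pineal markers are also at 28.7 and 6237 CPM there.

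Library by library, the 10 genes followed a few extremes. Vehicle 3 was the lowest of the 12 libraries for 7 of them, where it was lowest for 33.2% of all tested genes. Psilocybin 2 was the highest for 5 (Hk1, Aldoa, Tpi1, Gapdh and Pkm), where it was highest for 7.97% of all tested genes, and vehicle 1 was the highest for Pgk1 and Ldha. The summed level of the 10 genes was 1853, 2314 and 1827 CPM in unstressed, 3444, 4456 and 1148 in vehicle, 3679, 4944 and 3638 in psilocybin, and 3356, 2380.5 and 3844 in MDMA libraries. In these sums the unstressed libraries were all below the drug-treated ones, and vehicle spanned both. Per kb of own exons the sums were 709, 879.5 and 686 in unstressed and 947, 679.9 and 1041 in MDMA libraries, so that MDMA 2 lay below all unstressed libraries, while psilocybin, at 1009 or more, stayed above them.

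Markers of other cell types varied beside these levels. The 7 pineal gland markers, such as Tph1 and Crx, summed to 122, 1866 and 16.4 CPM in unstressed, 1422, 3632 and 28.7 in vehicle, 841, 6237 and 2258 in psilocybin, and 1465, 1689 and 2889 in MDMA libraries. Unstressed 2, vehicle 2 and psilocybin 2, which had the highest pineal sums of their groups, also had the highest summed level of the 10 genes in their groups, while of the MDMA libraries replicate 3 had both. This was not particular to the pineal list. Neuronal and glial markers were also highest of their groups in unstressed 2, vehicle 2 and psilocybin 2 (1204, 1498 and 1684 CPM). In MDMA they were highest in replicate 1 (4244 CPM). Asmt, which completes melatonin synthesis, had no count in 6 libraries, and 3 of the 7 pineal markers were at 0 in vehicle 3 and unstressed 3. The choroid plexus markers took 4.06%, 1.56% and 3.88% of counts in unstressed, 12.7%, 6.47% and 1.31% in vehicle, 11.8%, 6.48% and 6.76% in psilocybin, and 4.47%, 3.08% and 2.29% in MDMA libraries. Vehicle 1 and psilocybin 1, with the highest choroid plexus shares, were also the libraries with the highest Ldhb. The part of these cell types in the levels of the 10 genes was not tested.

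Further marker lists were summed in the same way. Over the 12 libraries, neutrophil markers ran from 27.8 to 2454 CPM, at 532 or more in all MDMA libraries and up to 965 in psilocybin. Fibroblast markers were at 6763 to 13465 CPM in MDMA libraries, above all other libraries, which ran from 1219 to 6616. Endothelial markers stayed between 802 and 1866 CPM, non-classical monocyte markers between 442 and 1348, microglial markers between 86.5 and 437, border macrophage markers between 11.3 and 286, neuronal and glial markers between 382 and 4244, and erythroid markers between 0 and 88.8. These ranges were set beside the 10 genes without a test.

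Likeness over the 12 libraries was uneven within the 10 genes. The log2 CPM of Aldoa, Tpi1 and Eno1 had Pearson correlations of 0.89, 0.86 and 0.84 with the mean of the other 9 genes, and those of Ldha, Pgk1 and Pgam1 were 0.37, 0.30 and -0.18. Among 8229 genes outside the pathway lists with a mean of at least 20 CPM, the 5 whose log2 CPM was most like the mean z-score of the 10 genes were Ghitm (r = 0.95), Clu and Rdh5 (0.94 each), Napa (0.94) and Grina (0.93). Ghitm encodes a mitochondrial inner membrane protein, Clu the secreted chaperone clusterin, Rdh5 a retinol dehydrogenase and Napa an adaptor of vesicle fusion. These are descriptions over 12 libraries that share group, depth and cell mixture, and they were chosen as the highest of many.

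Several of these genes have near-identical copies in the mouse genome, among them pseudogenes of Gapdh, Ldha, Pkm, Tpi1, Pgam1 and Pgk1. Reads that fit a gene and its copy equally well may have been dropped or split, so the levels of these genes are uncertain to that extent. Eno1b, a copy of Eno1, had 2.37 to 17.8 CPM per library against 112 to 629 for Eno1. Aldoart1, a copy of Aldoa, had 2.89 to 9.47 CPM against 329 to 1601.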

How the data were processed

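Each of the 12 deposited libraries holds raw, unscaled read counts for every annotated gene. Per the labels' protocols, cells came from a magnetic monocyte isolation kit and libraries were made from 5 ng of RNA. Per the submitters' processing notes, the tools were edgeR 3.42.4, featureCounts 2.0.1, STAR 2.7.5c, MultiQC 1.11, FastQC 0.11.9 and fastp 0.23.2, and the build mm10. Per the file headers, unstressed libraries were counted without a strand or multi-mapping option over RefSeq exons; for the stressed libraries, which carry Ensembl identifiers, the sources used here give neither annotation release nor counting command. A table of the whole series repeats the 9 stressed libraries and has 3 further columns, not analysed.

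Genes were joined by symbol and locus (26664) or by exon overlap (924, Jaccard index of at least 0.5) through GENCODE vM21, keeping 94.8% to 99.1% of each library's counts. CPM use the library's total count. Tests used edgeR 4.0.16 in R 4.3.3 on all 12 libraries (TMM, filterByExpr, quasi-likelihood, no replicate block, Benjamini-Hochberg at 0.05), with log2 fold changes and SE derived from the test statistic. The script was tested on simulated counts drawn with the spread of the groups other than vehicle, so the spread of the vehicle libraries was not covered. Same-numbered vehicle and psilocybin libraries deviated together (correlations across genes of 0.112, 0.213 and 0.115). Differently numbered libraries of other groups reached 0.281 (psilocybin 1 with unstressed 3). The labels give no pairing, so whether the numbers pair libraries is not known. The replicate block changed no call of the 10 genes in psilocybin against vehicle. Where a group has no count of a gene, the fold is a bound that sets the group at 3 counts. Shares were compared by exact permutation tests (scipy 1.17.1).

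Named were all 10 genes in every comparison, genes past the threshold in 7 other pathway lists, and the 5 genes most like the mean of the 10. Members and lists were chosen with earlier results of these data known. Alternatives were other scalings and filters, DESeq2 1.42.0, limma voom (limma 3.58.1), the replicate block, 6 libraries alone, genes with nearly the same exons (none of the 10 qualified), an exon-length offset, 9 stressed libraries alone and leaving out libraries.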

Additional observations from a re-analysis of the deposited data

How the results depend on the processing

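For the log2 fold changes of the 10 genes, 900 values under the alternatives kept direction and side of the threshold, 19 passed under an alternative only, 11 (all Ldha in vehicle against unstressed) lost the call and 30 turned direction. The cause of these moves was not tested. In vehicle against unstressed, Slc2a1 turned to -0.37 with limma voom. Hk1 ran from -2.81 (without vehicle 2) to 0.29 (without vehicle 3) when 1 library was left out, turning also without vehicle 1 (0.13) and unstressed 2 (0.020), and was 1.14 without vehicle 1 and vehicle 3 together. Pkm ran from -0.31 (without vehicle 2) to 0.40 (without vehicle 3), and was -0.10 with limma voom, -0.090 with the exon-length offset and -0.074 with 6 libraries and the offset. In MDMA against unstressed, the offset turned Gapdh to -0.18, Eno1 to -0.14 and Pkm to -0.052, and with 6 libraries they were -0.15, -0.12 and -0.027, while Pkm ran from -0.098 (without MDMA 3) to 0.31 (without MDMA 2). In psilocybin against vehicle, Gapdh ran from -0.023 (without psilocybin 2) to 0.41 (without psilocybin 3) and Ldha from -0.44 (without vehicle 2) to 0.090 (without vehicle 1), and without vehicle 1 and vehicle 3 Slc2a1 was -0.20, Pkm -0.078 and Ldha 0.30. In MDMA against vehicle, Tpi1 ran from -0.078 (without vehicle 3) to 0.57 (without vehicle 1), Eno1 from -0.64 (without vehicle 3) to 0.11 (without vehicle 1), and Pkm from -0.22 (without vehicle 3; also without MDMA 3) to 0.47 (without vehicle 2). Pkm was -0.051 there with DESeq2 and -0.051 with its size factors. Without vehicle 1 and vehicle 3, Hk1 was -0.059, Pkm -0.46 and Ldha 0.070.

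Counts of genes past the threshold over the whole table moved more. In the order any difference, vehicle, psilocybin and MDMA against unstressed, then psilocybin and MDMA against vehicle, the reported counts were 81, 478, 12, 17, 2 and 94. They were 1424, 1750, 246, 219, 1061 and 1338 with DESeq2, and 828, 1405, 120, 148, 436 and 887 with limma voom. With no filter the first 5 were 278, 291, 51, 65 and 7. With the offset the first 4 were 13, 174, 3 and 7, and among genes with nearly the same exons 0, 37, 0 and 0, with 16 in MDMA against vehicle; the zeros had 320, 99 and 75 genes at an unadjusted p under 0.05. DESeq2 size factors gave 300 in vehicle against unstressed and 0 (2323 at an unadjusted p under 0.05) and 3 in the drugs against vehicle, and library totals gave 4 in psilocybin against vehicle. With 6 libraries there were 2, 1380 and 237 against unstressed and 0 and 0 against vehicle (773 and 615 at an unadjusted p under 0.05), and with 6 libraries and the offset, chosen after seeing the data, 0 (857), 1725 and 202. The 9 stressed libraries alone gave 0 and 0 against vehicle (1852 and 1925). Without vehicle 1 and vehicle 3 there were 570 for any difference and 0 and 0 against vehicle (1830 and 2158); the lone vehicle library is then assumed to vary like the other groups.

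With the replicate block the 6 counts were 16, 10, 5, 5, 0 and 0 (1988 and 2153 at an unadjusted p under 0.05 in the last pair), and Ldha in vehicle against unstressed had 1.56 (edgeR adjusted p = 0.105); the block changed no other call of the 10 genes. The correlations of same-numbered pairs were all over 0.1 only for psilocybin and vehicle, which alone does not show that the numbers pair them. In vehicle and unstressed these were 0.020, 0.131 and 0.095, and in psilocybin and MDMA 0.225, 0.024 and 0.214, all above 0. Each remaining comparison had at least 1 value below 0. The numbers may or may not pair any of these libraries. Leaving out 1 library gave 11 to 2477 for any difference, 8 to 3670, 3 to 5 and 2 to 4 against unstressed, and 0 to 3536 and 0 to 3613 against vehicle; the highest counts of any difference and of the 3 comparisons with vehicle were those without vehicle 2, the shallowest library (807725 counts). At that depth 1 count is worth more than 1 CPM, which limits low genes.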
